A study of Homo sapiens with 40 samples.

Results

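Immediate early genes and CD69 were followed across lymphoma lines treated with an EZH2 inhibitor. The set was named gene by gene: EGR1, EGR2 and EGR3, FOS and FOSB, JUN and JUNB, IER2, NAB2 and CD69, 10 genes in all. Of these, 9 had a probe set that names 1 gene symbol only, out of 19775 genes with such a probe set, and all 9 were among the 15179 genes tested. EGR2 was not analysed here. Where a gene had several such probe sets, the one with the highest mean over all arrays stands for it.

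RNA came from 10 established lines of human diffuse large B-cell lymphoma, a tumour of mature B cells. Cells received 500 nM GSK126 in 0.1% DMSO, or 0.1% DMSO alone, for 72 h, and each line and treatment had 2 arrays, labelled as biological replicates (40 arrays). GSK126 is a small molecule that blocks EZH2, the subunit of Polycomb repressive complex 2 that methylates histone H3. The labels give 7 lines as EZH2 mutant and 3, namely HT, OCI-LY-19 and Toledo, as wild type. The allele of each mutant is not given in the labels. Each line stands for 1 tumour, so the lines of a genotype also differ in much else. The labels also give each line's growth IC50 for GSK126, and lines are listed here in its order: Pfeiffer (28 nM), WSU-DLCL2 (134 nM), KARPAS-422 (232 nM), SU-DHL-10 (448 nM), HT (516 nM), SU-DHL-6 (582 nM), DB (861 nM), OCI-LY-19 (1019 nM), SU-DHL-4 (4828 nM) and Toledo (13786 nM). Values are array signals scaled by MAS5 to a common mean of 500. Changes are GSK126 minus DMSO on the log2(signal + 17.72) scale, which understates changes of dim genes, with the standard error (SE) of a limma fit over all 40 arrays. A gene was called risen or fallen at an adjusted p below 0.05, Benjamini-Hochberg over the 15179 genes of a line.

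Immediate early genes are transcribed within minutes of a growth factor, antigen receptor or stress signal, without new protein synthesis. In B cells, engagement of the antigen receptor activates the Ras and ERK kinases, which phosphorylate ETS partners of the serum response factor SRF at CArG boxes. EGR1, EGR2 and EGR3 are zinc finger transcription factors, and NAB2 is a corepressor that binds EGR proteins and is itself induced by them. FOS and FOSB pair with JUN or JUNB to form the AP-1 transcription factor. IER2 is a nuclear protein of the same early wave, and CD69 is a lectin-like surface protein that appears early on activated lymphocytes and holds back their exit from lymphoid tissue.

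The start sites of EGR1, FOS, JUN and NAB2 are shown because they stand for the EGR, FOS, JUN and NAB branches of the set. Each sequence runs from 250 bases before to 50 after the annotated start, 5′ to 3′ on the gene's own strand, from RefSeq for GRCh38.p14. EGR1 lies at chr5:138465229-138465528 (plus strand), FOS at chr14:75278578-75278877 (plus), JUN at chr1:58783998-58784297 (minus) and NAB2 at chr12:57088864-57089163 (plus). Capitals mark CArG boxes in EGR1, the TATA box in FOS and the EGR site GCGGGGGCG in NAB2. JUN has no exact match to the motifs searched in this window, and is shown for comparison.
EGR1: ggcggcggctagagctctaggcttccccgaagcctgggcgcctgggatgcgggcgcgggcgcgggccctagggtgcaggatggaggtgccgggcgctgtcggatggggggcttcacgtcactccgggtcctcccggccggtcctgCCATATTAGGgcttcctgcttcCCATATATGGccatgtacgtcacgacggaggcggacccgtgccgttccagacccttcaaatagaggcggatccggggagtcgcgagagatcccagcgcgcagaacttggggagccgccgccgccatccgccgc
FOS: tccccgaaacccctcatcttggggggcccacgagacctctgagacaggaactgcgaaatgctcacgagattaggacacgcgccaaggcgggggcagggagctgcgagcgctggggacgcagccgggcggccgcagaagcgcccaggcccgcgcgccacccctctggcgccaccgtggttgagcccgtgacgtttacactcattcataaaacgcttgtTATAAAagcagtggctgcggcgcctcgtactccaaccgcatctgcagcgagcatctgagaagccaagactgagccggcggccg
JUN: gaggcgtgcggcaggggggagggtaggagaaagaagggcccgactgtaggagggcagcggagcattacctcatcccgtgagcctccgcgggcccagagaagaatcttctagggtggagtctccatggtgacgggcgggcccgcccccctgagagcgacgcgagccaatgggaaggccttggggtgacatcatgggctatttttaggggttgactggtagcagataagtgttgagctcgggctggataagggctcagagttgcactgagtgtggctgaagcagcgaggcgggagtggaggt
NAB2: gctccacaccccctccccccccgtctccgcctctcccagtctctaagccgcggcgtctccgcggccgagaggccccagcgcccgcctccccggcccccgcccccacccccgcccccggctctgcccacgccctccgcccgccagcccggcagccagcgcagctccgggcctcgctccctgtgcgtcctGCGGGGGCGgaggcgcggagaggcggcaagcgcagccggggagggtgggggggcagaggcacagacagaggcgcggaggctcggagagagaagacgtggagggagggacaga
Promoters of this length were at hand for 7 of the 9 genes, and 7 motifs were searched on both strands. CArG boxes, the sites bound by SRF, occurred in 1 of the 7, in EGR1 with first bases at -105 and -83 from the start, against 1.29% of all 35116 promoters. TATAAA occurred in 3, namely FOS, FOSB and JUNB, against 11.5% of all promoters. GCGGGGGCG occurred in 1, NAB2, with its first base at -62, against 5.07%. The EGR site GCGTGGGCG (0.795% of all promoters), the CRE TGACGTCA (1.85%), the AP-1 site TGANTCA (7.71%) and the NF-kB site (11.3%) occurred in none of the 7 windows. Sites outside these windows, or with other letters, were not searched, so an absence holds for these windows and patterns only. No motif marked in these sequences overlapped another, and a match is a description of the letters only.

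B cell marker genes fitted the labels: all 6 analysed were above the array median on every array of 9 lines, and 5 of 6 were in OCI-LY-19, where MS4A1 was low. Of 9 T and NK cell markers with a probe set, NKG7 and GNLY were above the median on no array. PRF1 was above it on all 40 arrays (signals of 101 to 425) and CD3E on 36. CD8A was above it on 8, CD3D on 7, CD3G on 4, KLRD1 on 2 and CD2 on 1. The summed signal of that list was 13900 to 16100 on GSK126 arrays and 13200 to 13400 on DMSO arrays of Pfeiffer. It was 7210 to 7940 against 8770 to 9700 in KARPAS-422, and at most 651 on any array of the other lines. The 6 stromal and epithelial markers summed to 9950 to 10700 with GSK126 and 12800 to 13700 with DMSO in Pfeiffer. The part of either list in the members' values was not tested. Pearson's r over all genes was 0.982 to 0.989 between replicates, 0.968 to 0.987 between treatments of a line and 0.81 to 0.947 between lines. The 3′ minus 5′ log2 difference of control probes lay between -0.25 and 0 for GAPDH and between 0.02 and 0.45 for ACTB. These are bulk RNA values, so fewer cells with a transcript and less transcript per cell cannot be told apart.

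Most falls that passed the test were in WSU-DLCL2, KARPAS-422 and SU-DHL-10, which held 19 of the 22 called falls. FOS was above the array median on arrays of these lines only, so a fall of FOS could hardly be called elsewhere. The members were also chosen with earlier results of these data known, so the counts are a description. In WSU-DLCL2 6 of 9 genes fell and none rose, beside 12.7% of all tested genes called fallen there and 13.9% called risen. In KARPAS-422 7 fell and none rose, beside 13.4% and 15.4% of all genes, and in SU-DHL-10 6 fell and none rose, beside 7.15% and 10.9%. The count in SU-DHL-10 was 4 without GSK126 replicate 1, 1 without GSK126 replicate 2, 1 without DMSO replicate 1 and 2 without DMSO replicate 2, and 3 with a pseudocount of 1. In HT, which is EZH2 wild type, 2 fell, EGR1 and JUNB, and none rose, beside 3% and 6.23% of all genes. In DB IER2 alone fell, beside 0.606% of all genes, and none rose (2.47%). In Pfeiffer 2 rose, JUN and CD69, beside 14.6% of all genes called risen, and none fell (9.95%). The set had no call in SU-DHL-6, where 7.4% of all genes rose and 3.56% fell, nor in the least sensitive lines. There 1.96% rose and 0.448% fell in OCI-LY-19, 2.14% and 0.455% in SU-DHL-4, and 0.138% and 0.0264% in Toledo. Together 24 of the 90 combinations of gene and line were called.

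**Figure D1:**
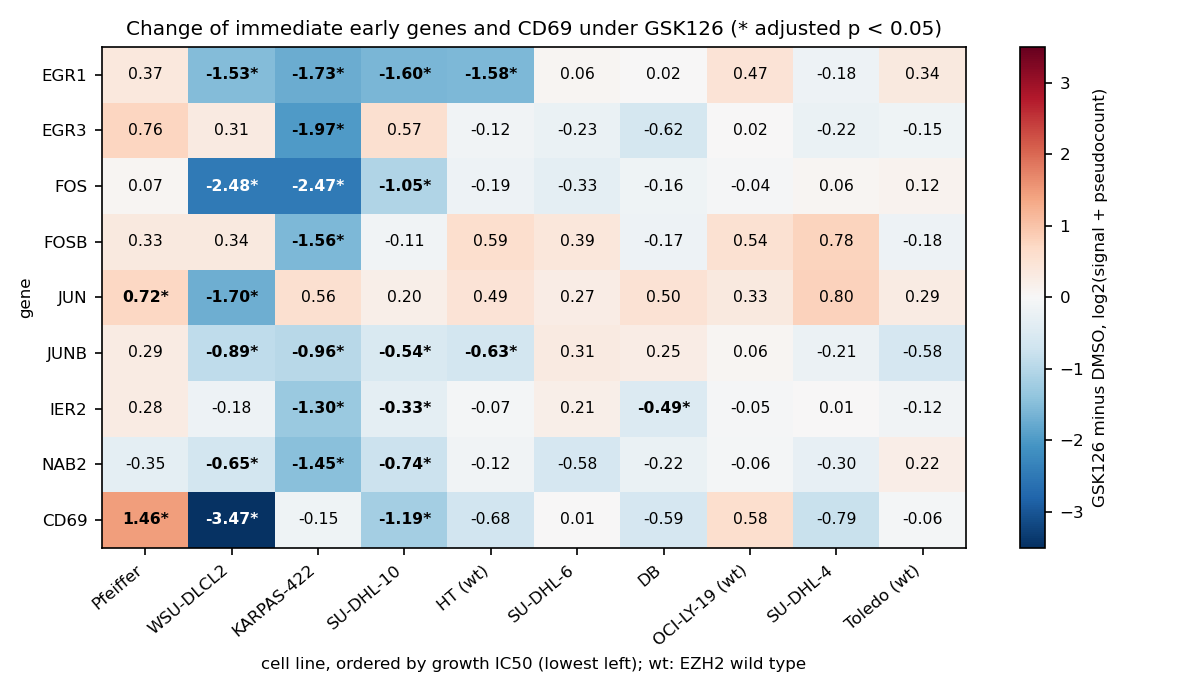
Change of 9 genes (rows) in 10 lines (columns, lowest growth IC50 left), GSK126 minus DMSO in log2(signal + pseudocount), blue for lower and red for higher under GSK126, with an asterisk at adjusted p below 0.05 in the limma fit. Called falls gather in WSU-DLCL2, KARPAS-422 and SU-DHL-10, while Pfeiffer, next to them in growth IC50, holds both called rises.

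The median change of the 9 genes was -0.89 in WSU-DLCL2, -1.45 in KARPAS-422 and -0.54 in SU-DHL-10, where the median of all tested genes was 0.07, 0.01 and 0.06. In Pfeiffer it was 0.33, against 0.06 over all genes. In the remaining 6 lines the members' median lay between -0.18 and 0.06, and that of all genes between 0 and 0.03. 

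Arrays of the 2 treatments separated for more members than were called. Both GSK126 arrays lay below both DMSO arrays for 7 members in WSU-DLCL2 (26.4% of all genes) and 7 in KARPAS-422 (29.7%), and above them for 1 in each (36.5% and 30.9%). In SU-DHL-10 6 lay below (21.5%) and 2 above (32.6%), and in HT 4 below (22.3%) and 2 above (29%). In Pfeiffer 7 lay above (36.3%) and 0 below (24.4%), although 2 of them were called. DB had 6 below (23.2%) and 2 above (24%), and SU-DHL-6 had 2 below (21.2%) and 3 above (28%). OCI-LY-19 had 0 below (20.3%) and 2 above (23.9%), SU-DHL-4 2 below (20.2%) and 3 above (23.8%), and Toledo 1 below (12.5%) and 2 above (20.3%). FOS, FOSB, EGR3 and CD69 were above the array median on 8, 10, 13 and 10 of the 40 arrays, and so entered the tests through the few lines where they were high. EGR1 was above it on 36 arrays, JUN and NAB2 on 39 each, and JUNB and IER2 on all 40.

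EGR1 fell about equally in 4 lines. Its signals were 876 and 638 with GSK126 and 2070 and 2310 with DMSO in WSU-DLCL2, and 400 and 379 with GSK126 and 1330 and 1340 with DMSO in KARPAS-422. They were 1190 and 1210 with GSK126 and 3350 and 3990 with DMSO in SU-DHL-10, and 102 and 97.6 with GSK126 and 389 and 286 with DMSO in HT. In none of these lines did the treatments overlap. The changes were -1.53 ± 0.19 (limma, adjusted p = 4.47e-07), -1.73 ± 0.19 (3.21e-08), -1.60 ± 0.19 (4.03e-07) and -1.58 ± 0.19 (1.27e-06), in that order of lines, which is 2.88-, 3.32-, 3.02- and 2.99-fold lower. Of all tested genes 2.6% were called fallen in 4 or more lines.

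In the other 6 lines EGR1 was not called. In Pfeiffer both GSK126 signals (1490 and 1290) exceeded both DMSO signals (1160 and 984), a change of 0.37 ± 0.19 with an adjusted p of 0.167 in the limma fit. With probe sets averaged it was 0.45 and was called (adjusted p = 0.0133). In OCI-LY-19 the GSK126 signals of 758 and 854 also stood above the DMSO signals of 530 and 623 (0.47 ± 0.19, limma adjusted p = 0.263). In SU-DHL-6 they were 1110 and 1070 with GSK126 and 1100 and 989 with DMSO, so a line with a DMSO level near that of Pfeiffer and KARPAS-422 showed a change of 0.06 ± 0.19. DB (0.02), SU-DHL-4 (-0.18) and Toledo (0.34) had overlapping treatments and dim signals.

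EGR1 differed more between lines than between treatments. With DMSO the log2 level averaged 11.84 in SU-DHL-10, 11.11 in WSU-DLCL2, 10.40 in KARPAS-422, 10.08 in Pfeiffer, 10.05 in SU-DHL-6, 9.21 in OCI-LY-19, 8.46 in HT, 7.07 in DB, 6.62 in SU-DHL-4 and 6.29 in Toledo, with SDs of 0 to 0.30 (n = 2). Neighbours in that order differed except KARPAS-422 and Pfeiffer, Pfeiffer and SU-DHL-6, and SU-DHL-4 and Toledo. Over all 45 pairs of lines 41 differed in EGR1 (limma, adjusted over genes and also over the 45 pairs). Beside this, 52.6% of gene and pair combinations over all genes differed, adjusted over genes only, which is less strict. The 3 lines with the highest DMSO level were among the 4 in which EGR1 fell. Here and for the other members below, the DMSO level and the change share the DMSO arrays, so they are not independent. With GSK126 those 3 lines had log2 levels of 10.25 in SU-DHL-10, 9.58 in WSU-DLCL2 and 8.67 in KARPAS-422.

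**Figure D2:**
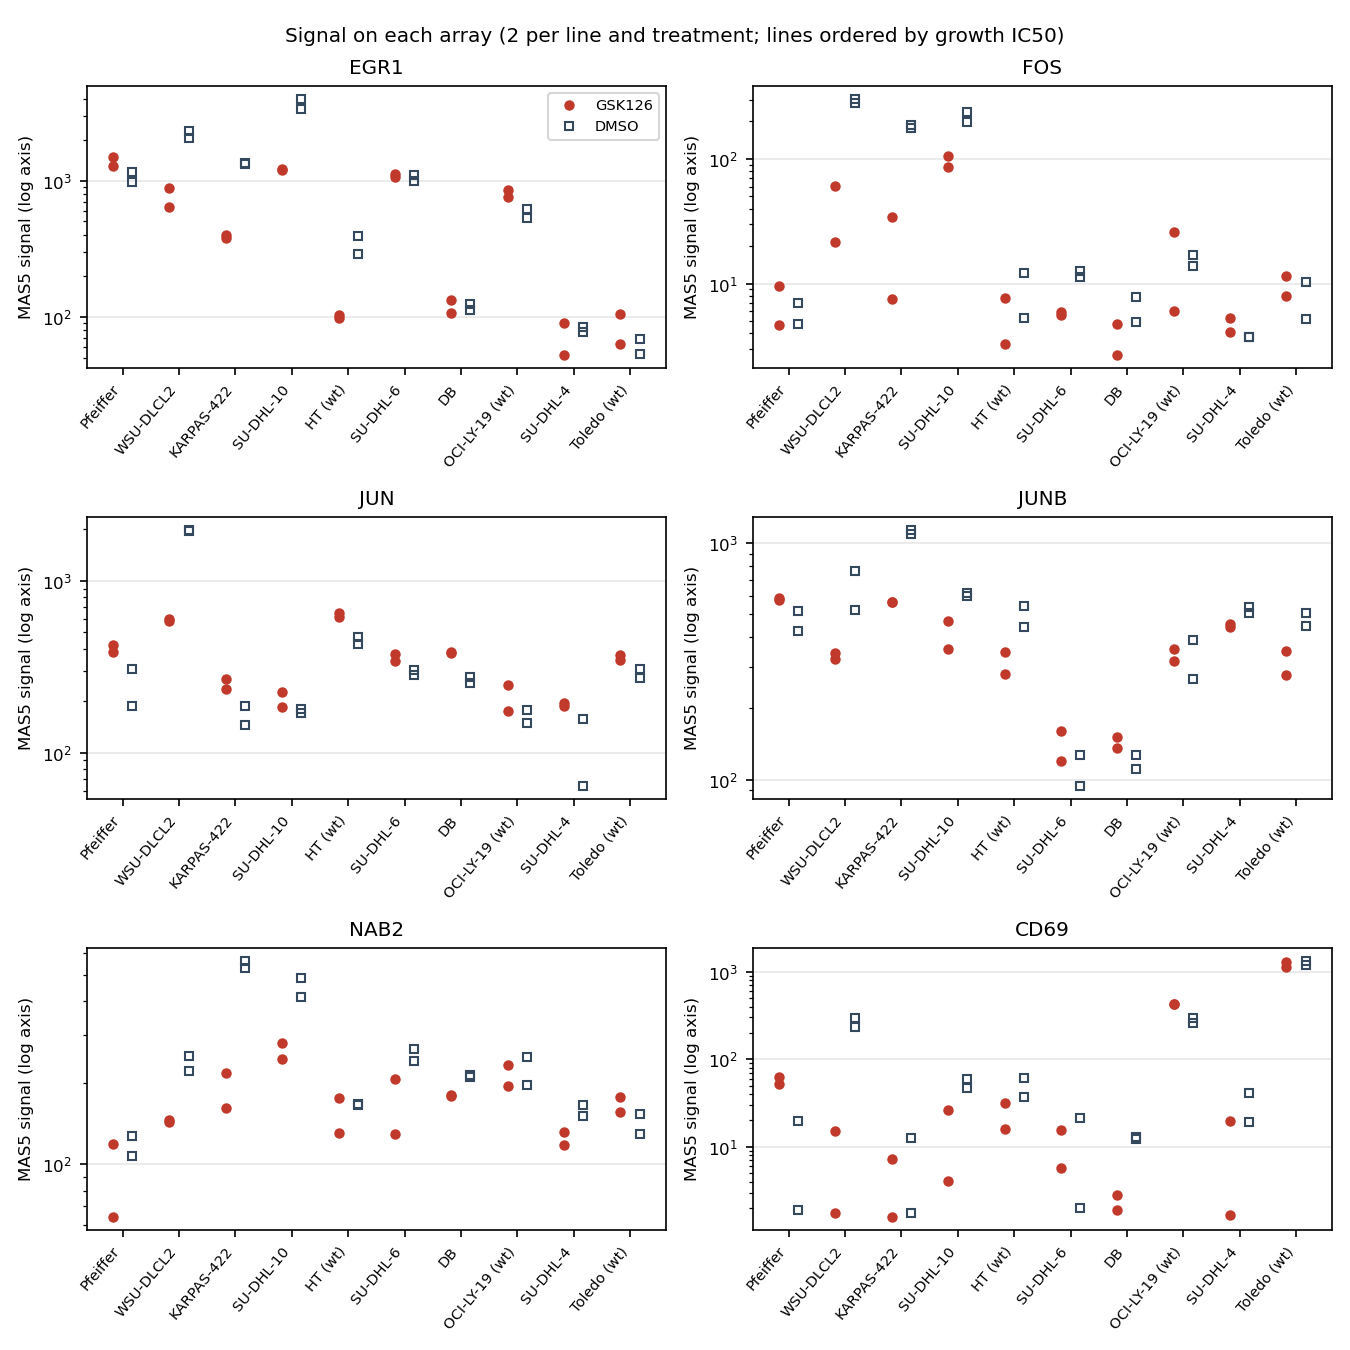
MAS5 signal (log axis) of EGR1, FOS, JUN, JUNB, NAB2 and CD69 on every array, filled circles GSK126 and open squares DMSO, 2 arrays per line and treatment, lines ordered by growth IC50. FOS signals of 178 to 304 occur on the DMSO arrays of WSU-DLCL2, KARPAS-422 and SU-DHL-10 only, JUN signals of 1950 and 1980 in WSU-DLCL2 with DMSO, and CD69 signals of 1140 to 1330 in Toledo with either treatment.

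EGR3, a close relative of EGR1, fell in 1 line. In KARPAS-422 it gave 21.7 and 51.7 with GSK126 and 194 and 180 with DMSO (-1.97 ± 0.43, limma adjusted p = 0.000757), beside the 13.4% given above. In WSU-DLCL2, where EGR1 fell, EGR3 gave 206 and 169 with GSK126 and 129 and 166 with DMSO (0.31 ± 0.43, limma adjusted p = 0.672). Its remaining changes lay between -0.62 in DB and 0.76 in Pfeiffer and none was called. DMSO levels of EGR3 spanned 2.76 log2 units from KARPAS-422 down to Pfeiffer, and no neighbours in that order differed.

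NAB2, the EGR corepressor, fell in the 3 lines in which FOS fell. The fall was largest in KARPAS-422, with 162 and 217 for GSK126 and 563 and 529 for DMSO (-1.45 ± 0.21, limma adjusted p = 5.14e-06). SU-DHL-10 gave 280 and 245 with GSK126 and 486 and 414 with DMSO (-0.74 ± 0.21, limma adjusted p = 0.0153). WSU-DLCL2 gave 143 and 146 with GSK126 and 221 and 251 with DMSO (-0.65 ± 0.21, limma adjusted p = 0.0251). Treatments did not overlap in these lines, but the call in WSU-DLCL2 was lost without any 1 of its 4 arrays (-0.73 to -0.56, adjusted p = 0.0532 to 0.150). The call in SU-DHL-10 was lost without GSK126 replicate 2 (-0.65, adjusted p = 0.111) or DMSO replicate 1 (-0.63, adjusted p = 0.138).

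NAB2 changes were below 0 in 7 of 7 mutant lines and in 2 of 3 wild type lines. SU-DHL-6 had 207 and 129 with GSK126 and 241 and 267 with DMSO (-0.58 ± 0.21, limma adjusted p = 0.0838), and was called without GSK126 replicate 1 (-0.89, adjusted p = 0.0241) and with arrays at equal medians (-0.75, adjusted p = 0.0282). In Pfeiffer the change of -0.35 ± 0.21 was -0.72 without GSK126 replicate 1 and then called (adjusted p = 0.0328), and 0.02 without GSK126 replicate 2. With 1 change per line as the unit, the mutant mean was -0.61 ± 0.13 (limma over 7 lines, adjusted p = 0.0272), the single member called in this comparison, beside 5.59% of all genes (849 of 15179). The wild type mean was 0.02 ± 0.20 (n = 3), and the difference of mutant minus wild type lines, -0.63 ± 0.24, had an adjusted p of 0.997 in the same limma fit, in which no gene was called. The call of the mutant mean was lost without WSU-DLCL2 (-0.61, adjusted p = 0.0687), SU-DHL-10 (-0.59, adjusted p = 0.0695) or SU-DHL-6 (-0.62, adjusted p = 0.0612). It was also lost with the labels' R tag as a term (adjusted p = 0.0546) and when probe sets were averaged (-0.51, adjusted p = 0.0641), and the 5 lines that share tag R7 alone gave -0.48 (adjusted p = 0.291).

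FOS was bright with DMSO in 3 lines and fell in each of them. WSU-DLCL2 gave 21.4 and 60.8 with GSK126 and 304 and 279 with DMSO (-2.48 ± 0.34, limma adjusted p = 1.84e-06). KARPAS-422 gave 34.2 and 7.51 with GSK126 and 189 and 178 with DMSO (-2.47 ± 0.34, limma adjusted p = 1.35e-06). SU-DHL-10 gave 106 and 86.3 with GSK126 and 238 and 197 with DMSO (-1.05 ± 0.34, limma adjusted p = 0.0287). No GSK126 array reached a DMSO array of its line. The sizes in WSU-DLCL2 and KARPAS-422 rest on dim GSK126 signals and on the offset: they were -2.97 and -3.41 with a pseudocount of 1, and -1.78 and -1.56 with one of 64. In SU-DHL-10 the call was lost without any 1 of the 4 arrays (-1.17 to -0.92, adjusted p = 0.0579 to 0.173) and with a pseudocount of 1 (adjusted p = 0.277).

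The other 7 lines had FOS signals of at most 25.9 on any array, near the low end of the scale, and changes between -0.33 and 0.12 that were not called. The drop of 2.60 log2 units in the DMSO level between KARPAS-422 and the next line, OCI-LY-19, was the single difference between neighbours that passed for FOS (limma, adjusted p = 1.04e-07). HT, in which EGR1 fell, had FOS signals of 7.6 and 3.29 with GSK126 and 12.2 and 5.28 with DMSO. As a mean over the 7 mutant lines FOS changed by -0.91 ± 0.33, with an adjusted p of 0.116 in the limma fit.

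FOSB was high in KARPAS-422 alone and fell there. Its signals were 99.7 and 89.5 with GSK126 and 316 and 309 with DMSO (-1.56 ± 0.50, limma adjusted p = 0.0190). The call was lost without any 1 of these 4 arrays (-1.62 to -1.49, adjusted p = 0.0613 to 0.0923) and with a pseudocount of 1 (adjusted p = 0.114). The DMSO level stood 2.22 log2 units above that of the next line, HT (limma, adjusted p = 0.000427), and no other neighbours differed. Elsewhere changes lay between -0.18 in Toledo and 0.78 in SU-DHL-4, with replicate signals as far apart as 11.7 and 95.7 with GSK126 in OCI-LY-19.

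JUN, the other AP-1 partner, was highest in WSU-DLCL2 and fell there alone. There it gave 585 and 600 with GSK126 and 1950 and 1980 with DMSO (-1.70 ± 0.23, limma adjusted p = 1.32e-06), or 3.24-fold lower. The DMSO level of WSU-DLCL2 exceeded that of the next line, HT, by 2.09 log2 units (limma, adjusted p = 5.54e-09). In Pfeiffer JUN rose, with 387 and 425 for GSK126 and 306 and 187 for DMSO (0.72 ± 0.23, limma adjusted p = 0.0188). That call was lost without DMSO replicate 2 (0.39, adjusted p = 0.347), GSK126 replicate 1 (0.78, adjusted p = 0.0522) or GSK126 replicate 2 (0.65, adjusted p = 0.112), and with arrays at equal medians (0.57).

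With this probe set the JUN change was above 0 in the other 8 lines as well, without a call in any of them. The other JUN sets were below 0 in some of these lines. It was 0.80 ± 0.23 in SU-DHL-4 (187 and 194 with GSK126, 156 and 63.9 with DMSO, limma adjusted p = 0.0513) and 0.56 ± 0.23 in KARPAS-422 (235 and 267 with GSK126, 144 and 186 with DMSO, limma adjusted p = 0.0621). Without DMSO replicate 1 of SU-DHL-4 its change was 1.35 (adjusted p = 0.000321). In 8 lines both GSK126 arrays lay above both DMSO arrays, a pattern that 20.3% to 36.5% of all genes showed in a given line. With arrays at equal medians the change in SU-DHL-10 was -0.03 instead of 0.20. The mutant mean was 0.19 ± 0.25 (adjusted p = 0.676 in the limma fit), and 0.51 without WSU-DLCL2 (adjusted p = 0.0299).

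JUNB fell in the 4 lines in which EGR1 fell. KARPAS-422 gave 563 and 565 with GSK126 and 1140 and 1090 with DMSO (-0.96 ± 0.19, limma adjusted p = 0.000191). WSU-DLCL2 gave 342 and 325 with GSK126 and 521 and 764 with DMSO (-0.89 ± 0.19, limma adjusted p = 0.00057). HT gave 280 and 346 with GSK126 and 441 and 545 with DMSO (-0.63 ± 0.19, limma adjusted p = 0.0303), and SU-DHL-10 gave 470 and 356 with GSK126 and 613 and 596 with DMSO (-0.54 ± 0.19, limma adjusted p = 0.0419). The calls in KARPAS-422 and WSU-DLCL2 held without any 1 array. In HT the call was lost without GSK126 replicate 1 (-0.48, adjusted p = 0.292) or DMSO replicate 2 (-0.48, adjusted p = 0.287).

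In SU-DHL-10 the JUNB call was lost without GSK126 replicate 2 (-0.35, adjusted p = 0.341), DMSO replicate 1 (-0.52, adjusted p = 0.163) or DMSO replicate 2 (-0.56, adjusted p = 0.111). Toledo, wild type and the least sensitive line, gave 277 and 351 with GSK126 and 446 and 506 with DMSO. Its change of -0.58 ± 0.19 was close to that in HT but was not called (limma, adjusted p = 0.386), in a line where 0.165% of all genes were. JUNB was not called in Pfeiffer (0.29), SU-DHL-6 (0.31), DB (0.25), OCI-LY-19 (0.06) or SU-DHL-4 (-0.21). KARPAS-422 had the highest DMSO level and DB and SU-DHL-6 the lowest, which did not differ from each other.

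IER2, the nuclear early response protein gene, fell by more than 1 log2 unit in KARPAS-422 alone. Signals there were 579 and 731 with GSK126 and 1810 and 1470 with DMSO (-1.30 ± 0.11, limma adjusted p = 2.34e-10). DB gave 822 and 959 with GSK126 and 1200 and 1300 with DMSO (-0.49 ± 0.11, limma adjusted p = 0.00881). That call was lost without GSK126 replicate 1 (-0.38, adjusted p = 0.207) or DMSO replicate 2 (-0.43, adjusted p = 0.122), and with arrays at equal medians. SU-DHL-10 gave 7840 and 7970 with GSK126 and 9560 and 10300 with DMSO (-0.33 ± 0.11, limma adjusted p = 0.0361), a call lost without any 1 of the 4 arrays (-0.38 to -0.27, adjusted p = 0.0664 to 0.198). WSU-DLCL2, with 6220 and 5590 for GSK126 and 6620 and 6710 for DMSO, changed by -0.18 ± 0.11, which was not called. With arrays at equal medians this change was -0.43 and was called (adjusted p = 0.0103).

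CD69 showed the lowest change of the set and opposite calls in the lines with the lowest growth IC50. In WSU-DLCL2 its signals were 1.74 and 15.3 with GSK126 and 231 and 298 with DMSO (-3.47 ± 0.40, limma adjusted p = 1.24e-07), so both GSK126 arrays lay below the offset of 17.72. In Pfeiffer they were 62.1 and 51.9 with GSK126 and 19.9 and 1.91 with DMSO (1.46 ± 0.40, limma adjusted p = 0.00692), with no array above the array median. The rise in Pfeiffer lost its call without GSK126 replicate 1 (1.36, adjusted p = 0.0561) or DMSO replicate 2 (0.99, adjusted p = 0.159). The summed signal of T and NK cell markers was also high in Pfeiffer with either treatment, as given above. Only 3 of these 9 markers were above the array median there, and none of the 6 tested was called.

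In SU-DHL-10 CD69 gave 26.3 and 4.07 with GSK126 and 59.3 and 47.5 with DMSO (-1.19 ± 0.40, limma adjusted p = 0.0348). The call was lost without GSK126 replicate 2 (-0.69, adjusted p = 0.372), DMSO replicate 1 (-1.07, adjusted p = 0.179) or DMSO replicate 2 (-1.31, adjusted p = 0.0739). CD69 was highest in Toledo, at 1290 and 1140 with GSK126 and 1200 and 1330 with DMSO (-0.06 ± 0.40). OCI-LY-19 gave 431 and 423 with GSK126 and 299 and 261 with DMSO (0.58 ± 0.40, limma adjusted p = 0.690). KARPAS-422, where 7 other members fell, had CD69 signals of 1.58 and 7.31 with GSK126 and 12.7 and 1.74 with DMSO.

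The DMSO level of CD69 in Toledo was 2.11 log2 units above that of OCI-LY-19, which did not differ from WSU-DLCL2, and WSU-DLCL2 was 1.98 above SU-DHL-10, the next line (limma, adjusted p = 4.63e-05 and 0.000131). The mean DMSO level was 5.56 over 7 mutant lines and 8.19 over 3 wild type lines, a difference of -2.63 ± 0.93 with an adjusted p of 0.557 in the limma fit over lines. No member passed in that comparison, beside 0.0527% of all genes (8 genes).

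Whether the change differed between lines was tested directly. The moderated F test over the 9 differences passed for 8 of the 9 genes, beside 38.7% of all genes. F was 25 for EGR1 (limma, adjusted p = 4.82e-09), 16.5 for IER2 (2.38e-07), 10.6 for CD69 (1.17e-05), 9.96 for JUN (1.93e-05), 9.22 for FOS (3.58e-05), 6.99 for JUNB (0.00029), 4.66 for NAB2 (0.00395) and 3.05 for EGR3 (0.0338). FOSB did not pass (1.79, adjusted p = 0.209). EGR3 lost its call without GSK126 replicate 1 (F = 1.9, adjusted p = 0.184), DMSO replicate 1 (2.22, adjusted p = 0.119) or DMSO replicate 2 (2.37, adjusted p = 0.0956) of KARPAS-422, and without GSK126 replicate 1 (2.72, adjusted p = 0.0572) or DMSO replicate 2 (2.68, adjusted p = 0.061) of Pfeiffer. It also lost it with a pseudocount of 1 (1.96, adjusted p = 0.176), and NAB2 lost its call with probe sets averaged (2.6, adjusted p = 0.0778). FOSB gained one without GSK126 replicate 1 of OCI-LY-19 (3.05, adjusted p = 0.0362) and with a pseudocount of 64 (3.17, adjusted p = 0.0264).

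Genotype and growth IC50 were tested as the line-level groupings the labels give. No member passed in the mean of the wild type lines or in mutant minus wild type lines, where no gene of the 15179 was called (669 and 626 genes had an unadjusted limma p under 0.05). No member's change had a called slope on the log10 growth IC50, where 1 gene was called in all (0.00659%). The slopes ran from -0.18 ± 0.31 for EGR3 to 0.57 ± 0.38 for FOS per 10-fold IC50.

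Across the 10 lines the members' changes grouped in different ways. As a description over 10 lines measured on the same arrays, r was 0.76 between EGR1 and FOS, and 0.69 to 0.90 when any 1 line was left out. It was 0.80 between EGR1 and JUNB (0.74 to 0.93) and 0.81 between FOS and NAB2 (0.66 to 0.92). FOSB and IER2 had r = 0.90 (0.59 to 0.93). JUN and CD69 had r = 0.81, which was as low as 0.22 with 1 line left out. Not all pairs are given, and r was low or negative for others. EGR1 and EGR3 had r = 0.25 (-0.26 to 0.44) and EGR3 and JUN had -0.25 (-0.4 to -0.14). JUN and IER2 had -0.02 (-0.12 to 0.23) and FOSB and CD69 had -0.06 (-0.15 to 0.08). The lines fall into separate groups in these plots, so r mainly describes which lines fell.

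**Figure D3:**
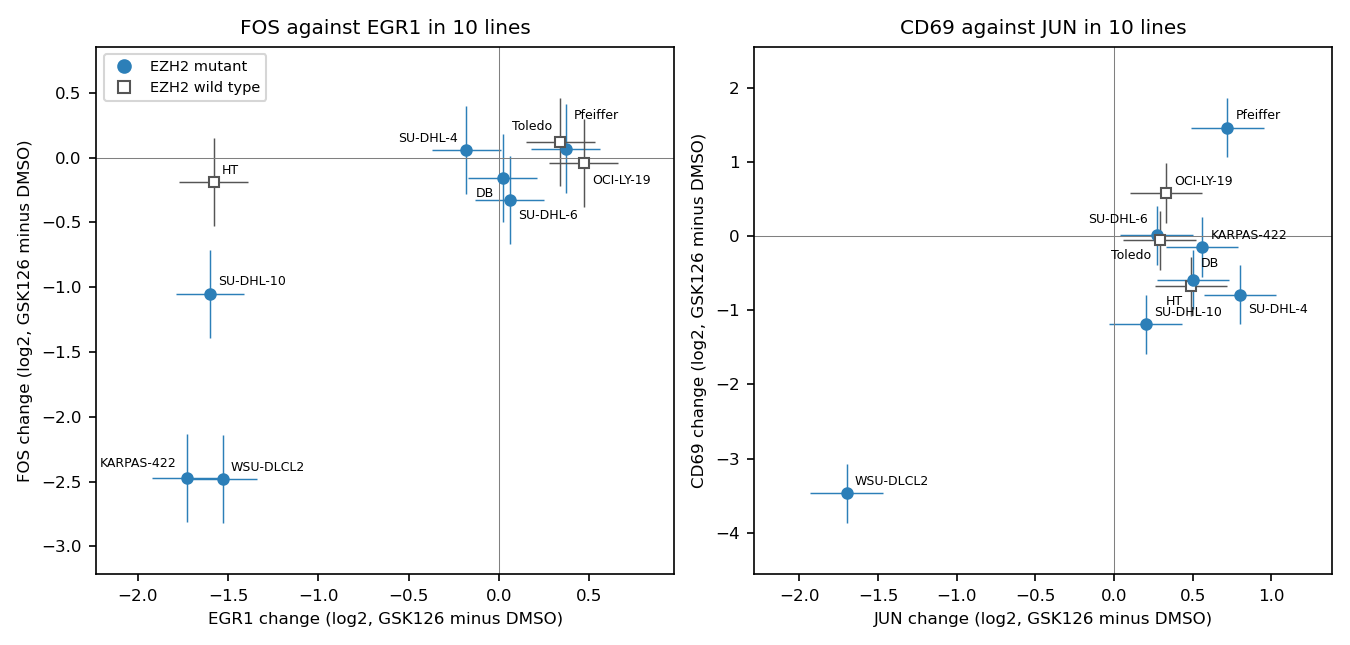
Change (log2, GSK126 minus DMSO) of FOS against EGR1 and of CD69 against JUN in 10 lines, with SE bars, filled circles for EZH2 mutant and open squares for wild type lines. Left, with the brightest EGR1 probe set, HT lies with the lines in which EGR1 fell but not with those in which FOS fell. FOS was dim in HT with either treatment. Right, WSU-DLCL2 lies alone at -1.70 for JUN and -3.47 for CD69, and Pfeiffer is highest in CD69 at 1.46.

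Genes outside the set were ranked by how closely their 10 changes followed a member's. EGR1 was followed most closely by the asparagine synthetase gene ASNS (r = 0.95, fallen in 5 lines, -0.76 to 0.01), GCNA (0.94, called in none), the helicase gene BLM (0.93, fallen in 4), the transcription factor gene CEBPB (0.92, fallen in 4, -1.43 to 0.34) and the tRNA synthetase gene EPRS1 (0.92, fallen in 6). JUN was followed by PHF20L1 (0.99), GPR171 (0.97), the uridine phosphorylase gene UPP1 (0.95), TIMM22 (0.94) and LINC00158 (0.94), each fallen in 1 line only, at -0.61, -2.60, -1.99, -0.63 and -3.07 in WSU-DLCL2. CD69 was followed by ZNF302 (0.98), RNF14 (0.96), ZC3H7A (0.95), RIT1 (0.95) and RGS1 (0.95), which encodes a regulator of G protein signalling. RGS1 changed by 2.45 in Pfeiffer and by -2.97 in WSU-DLCL2, and was called in both. All are the highest of 15179 genes by r over 10 lines, and such ranks carry no test.

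Other probe sets of the same genes gave a check on these values. For EGR1 the second brightest set followed the brightest at r = 0.96 over the 10 changes and the dimmest at 0.84, and both had the same sign in all 4 called lines. In HT, however, the dimmest gave 106 and 45.7 with GSK126 and 77.1 and 77.3 with DMSO (-0.10 ± 0.25), whereas the second gave 144 and 109 with GSK126 and 373 and 275 with DMSO (-1.24 ± 0.19). The brightest JUN set carries the x_at suffix for sets whose probes can bind other transcripts. The other 3 JUN sets were above the array median on 2 to 9 of 40 arrays. They changed by -0.78 ± 0.33, -1.67 ± 0.43 and -1.57 ± 0.40 in WSU-DLCL2, and by 0.11 to 0.49 in Pfeiffer, where none was called. In WSU-DLCL2 the first of them was not called (limma, adjusted p = 0.0749), while the other two were (0.00358 and 0.004). In the 8 lines beside these, the first lay below 0 in KARPAS-422 (-0.30), SU-DHL-6 (-0.21) and SU-DHL-4 (-0.25), the second in SU-DHL-10, HT, SU-DHL-4 and Toledo (-0.31 to -0.01) and the third in SU-DHL-10 (-0.15), none of them called. The second NAB2 set, above the median on 7 arrays, had r = 0.50 and gave -1.45 ± 0.48 in SU-DHL-10, -0.91 ± 0.48 in KARPAS-422 and -0.71 ± 0.48 in WSU-DLCL2. It was called in SU-DHL-10 (limma, adjusted p = 0.0344) but not in KARPAS-422 (0.167) or WSU-DLCL2 (0.316), and it lay above 0 in SU-DHL-6 (0.51) and DB (0.25).

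**Figure D4:**
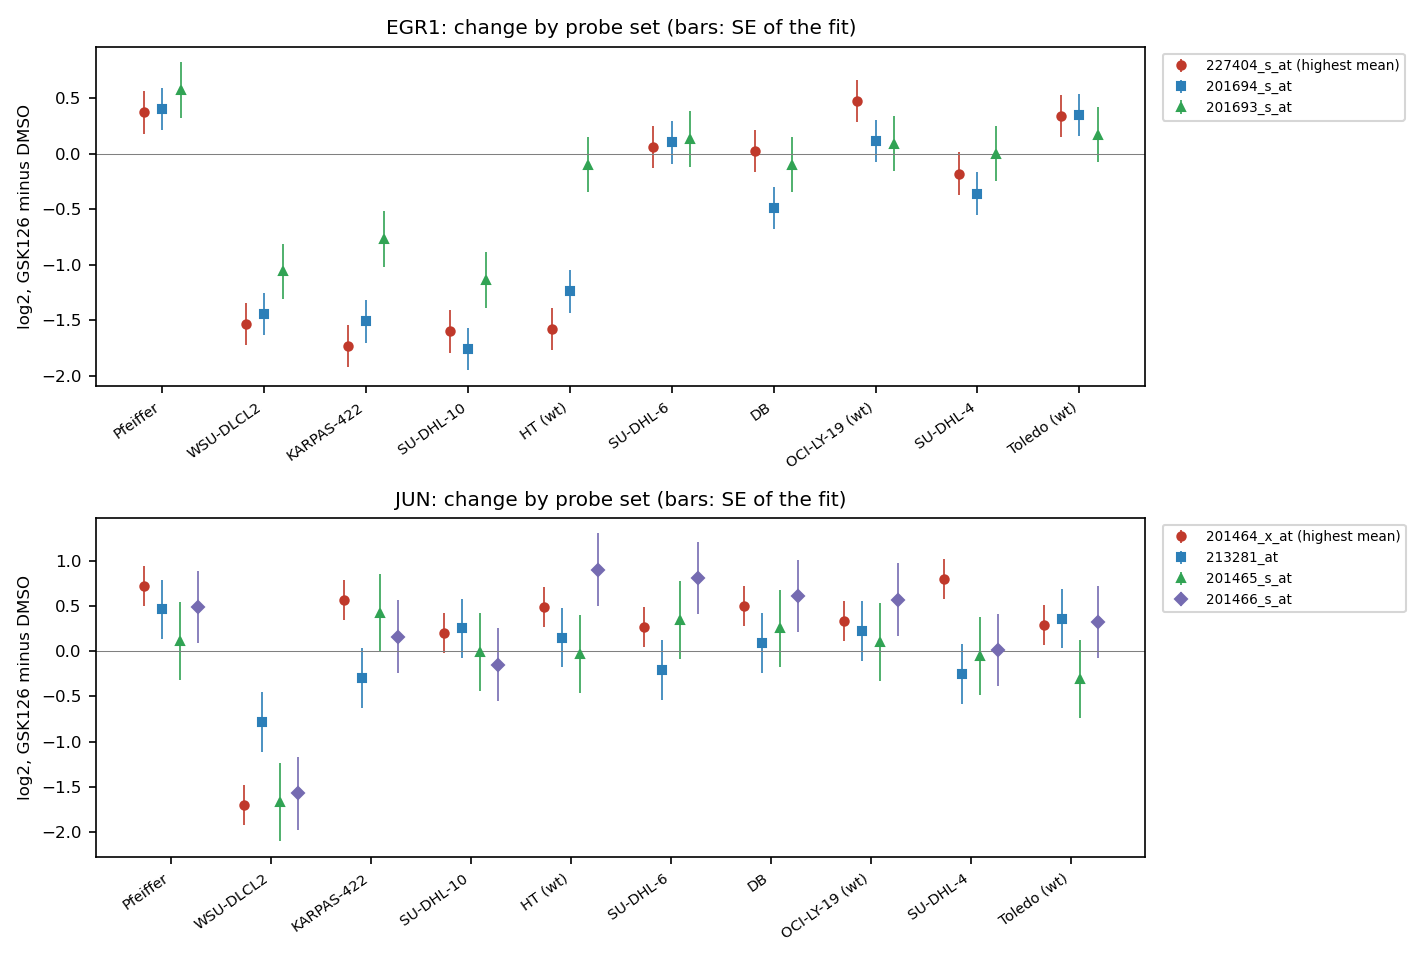
Change by line (log2, GSK126 minus DMSO, bars SE) for each single-symbol probe set of EGR1 (top) and JUN (bottom), lines ordered by growth IC50, circles marking the set with the highest mean. The EGR1 sets separate in HT, at -1.58, -1.24 and -0.10, and all 4 JUN sets lie below 0 in WSU-DLCL2.

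The relatives of the set did not follow it as a group. Counts of this and the following lists stand beside the shares of all genes called in each line, given above. Of 9 tested AP-1 and EGR relatives 2 fell and 2 rose in WSU-DLCL2 and in SU-DHL-10, and 1 fell and 3 rose in KARPAS-422, with medians of 0.02, -0.12 and -0.20. MAFF, a small MAF protein, fell in the 4 lines in which EGR1 and JUNB fell, from -1.35 ± 0.18 in WSU-DLCL2 to -0.64 ± 0.18 in HT. NAB1, the corepressor paralogous to NAB2, rose in 7 lines, by 1.27 ± 0.10 in WSU-DLCL2, 0.80 ± 0.10 in KARPAS-422 and 0.66 ± 0.10 in SU-DHL-10, where NAB2 fell. The AP-1 relative BATF rose in WSU-DLCL2 (1.25 ± 0.31) and SU-DHL-10 (1.40 ± 0.31), and JUND rose in 3 lines, most in Pfeiffer (0.60 ± 0.08), and fell in SU-DHL-10 (-0.30 ± 0.08). With all probe sets of a gene averaged, NAB1 rose in 3 lines, MAFF fell in 2 and JUND was called in none. With arrays at equal medians JUND rose in 1.

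Of 19 other immediate early genes tested, 7 rose and 2 fell in Pfeiffer, 1 rose and 5 fell in WSU-DLCL2, 5 rose and 2 fell in KARPAS-422 and 1 rose and 3 fell in SU-DHL-10. Their medians were 0.24, -0.18, 0.09 and -0.06, so in KARPAS-422 they did not share the members' -1.45. The zinc finger gene KLF6 fell in WSU-DLCL2 (-1.10 ± 0.09) and SU-DHL-10 (-0.34 ± 0.09) and rose in KARPAS-422 (0.69 ± 0.09) and Pfeiffer (0.30 ± 0.09). TRIB1, a pseudokinase gene, rose in Pfeiffer (2.73 ± 0.20) and KARPAS-422 (1.00 ± 0.20). ZFP36L1, an mRNA decay factor, rose in 4 lines, most in Pfeiffer (1.57 ± 0.11), and IER5 rose in 2 and fell in 2, lowest in WSU-DLCL2 (-0.49 ± 0.07). With arrays at equal medians ZFP36L1 rose in 2 lines and fell in 1, KLF6 rose in 1 and IER5 in none. With probe sets averaged ZFP36L1 rose in 1, IER5 rose in 4 and KLF6 fell in 1.

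Genes that ERK signalling induces to limit itself, such as the dual-specificity phosphatases and the Sprouty proteins, split by line. Of 13 tested, 5 rose and none fell in Pfeiffer (median 0.71), 1 rose and 4 fell in WSU-DLCL2 (-0.34), and 2 rose and 3 fell in KARPAS-422 (-0.09). In SU-DHL-10 1 rose and none fell (0.05). DUSP10 rose in 3 lines, by 1.06 ± 0.23 in KARPAS-422, 1.00 ± 0.23 in Pfeiffer and 0.80 ± 0.23 in SU-DHL-6. SPRED2, a Sprouty-related inhibitor of Ras signalling, rose by 2.21 ± 0.10 in KARPAS-422 and by 0.43 ± 0.10 in WSU-DLCL2. With arrays at equal medians it rose in 1 line and fell in 2, and with probe sets averaged it rose in 1.

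The factors that act on CArG boxes moved in both directions. Of the 6 tested, ELK3, an ETS partner of SRF, rose in 5 lines, most in Pfeiffer (1.84 ± 0.18), but in 2 with a pseudocount of 1 and in 3 with probe sets averaged. The SRF coactivator gene MRTFB rose in 5, most in SU-DHL-10 (1.77 ± 0.13), but in none with probe sets averaged. SRF itself fell in Pfeiffer (-0.33 ± 0.10), WSU-DLCL2 (-0.36 ± 0.10) and SU-DHL-6 (-0.35 ± 0.10) and rose in SU-DHL-10 (0.51 ± 0.10), a rise that was not called with arrays at equal medians or with probe sets averaged. Of 12 tested Ras and ERK pathway genes, 3 rose and 3 fell in WSU-DLCL2 and in SU-DHL-10, and 2 rose and 2 fell in KARPAS-422. Of all genes 13.9% rose and 12.7% fell in WSU-DLCL2, 10.9% and 7.15% in SU-DHL-10, and 15.4% and 13.4% in KARPAS-422. MAP2K1, the kinase MEK1, fell in 5 lines by 0.20 to 0.34, and in 3 with quantile normalization. The JNK genes moved apart: MAPK8 rose in 8 lines, most in SU-DHL-10 (0.79 ± 0.10), but in 3 with arrays at equal medians, and MAPK9 fell in 4, lowest in KARPAS-422 (-0.55 ± 0.08). RASGRP2, a Ras family exchange factor, rose in 4 lines, by 0.94 ± 0.18 in WSU-DLCL2, and in 2 with probe sets averaged.

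Other surface genes of B cell activation were compared with CD69. Of 12 tested, 5 rose and none fell in Pfeiffer (median 0.45), and none rose and 5 fell in WSU-DLCL2 (-0.27), the lines in which CD69 had opposite calls. In KARPAS-422 4 rose and none fell (0.19), and in SU-DHL-10 1 rose and none fell (0.06). The chemokine receptor gene CCR7 changed by 2.40 ± 0.37 in Pfeiffer and -1.25 ± 0.37 in WSU-DLCL2, both called, and rose in SU-DHL-10 (1.23 ± 0.37), where CD69 fell. Its fall in WSU-DLCL2 was not called with a pseudocount of 1. CD83, a marker of activated B cells, rose in 4 lines, most in HT (0.92 ± 0.16), and fell in WSU-DLCL2 (-0.47 ± 0.16). With arrays at equal medians or quantile normalization it rose in 2. CD44 rose in Pfeiffer (1.17 ± 0.34), but not with a pseudocount of 1.

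Heat shock genes were read as a sign of handling stress, which also induces immediate early genes. Of 8 listed genes 5 were tested, and HSPA1A, HSPA1B and HSPA8 were not. Of the 5, none fell in WSU-DLCL2 (2 rose), SU-DHL-10 (3 rose), HT (2 rose), SU-DHL-4 (2 rose) or SU-DHL-6 (1 rose). In KARPAS-422 1 rose and 2 fell, and in Pfeiffer 2 rose and 2 fell. BAG3, a co-chaperone gene, rose in 6 lines, most in SU-DHL-10 (1.56 ± 0.09), and HSPB1 rose in 5, most in HT (1.30 ± 0.17). The other 3 did not share this: HSPH1 rose in 0 lines and fell in 2, DNAJB1 rose in 1 and fell in 2, and HSP90AA1 rose in 1 and fell in 0. BAG3 and HSPB1 both rose in WSU-DLCL2, SU-DHL-10 and HT, where the median of the 5 genes was 0.15, 0.54 and 0.01. The part of handling in the members' values was not tested.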

How the data were processed

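The series held 40 one-colour Affymetrix expression arrays of 10 lymphoma lines. The authors' deposited values are log2 signals made with MAS5, per the submitters' processing notes, which give no version. On the linear scale the mean signal, with 2% trimmed at each end, was 500 on every array. Of 54675 probe sets, 41097 name 1 symbol in the platform annotation, 1801 name several and the rest none. From these a gene was its brightest single-symbol set (19775 genes), tested if above the array median on at least 2 arrays (15179).

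Signals were analysed as log2(signal + 17.72), the offset being the median over arrays of the 25th percentile. limma 3.58.1 (R 4.3.3) was fitted to 20 groups of 2 arrays, with an intensity trend, 20 residual and 6.99 prior degrees of freedom. Changes per line, their differences (F test) and DMSO levels between lines came from that fit. Means over 7 mutant and 3 wild type lines, and slopes on log10 growth IC50, came from limma on 1 value per line. Precision is limited by 2 arrays per group. Replicates are labelled biological, and no label ties a GSK126 array to a DMSO array. Same-numbered arrays of a line deviated from their group means with correlations of -0.05 to 0.07, so the numbers were not used as pairs. The R tag of the sample descriptions is not explained in the labels. It was 6 in Pfeiffer, KARPAS-422 and Toledo, 8 in SU-DHL-6 and OCI-LY-19 and 7 in the other 5 lines, so within a line tag and treatment do not mix. The scripts were tested on simulated data.

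The members and lists were chosen with earlier results of these data known. All members are given in every line. Of a list, genes called in at least 4 lines and the 2 with the largest absolute mean change over the mutant lines are named, and for EGR1, JUN and CD69 the 5 genes with the highest r. A few genes are named besides where a count is small. Alternatives were pseudocounts of 1 and 64, arrays at equal medians, quantile normalization, no filter, averaged or other probe sets, a replicate block, each line fitted alone, no intensity trend, and each array or line left out.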

Additional observations from a re-analysis of the deposited data

Results flagged for a closer look

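The response to GSK126 differed between the 10 lines, by the moderated F test over 9 differences (limma, Benjamini-Hochberg over all genes), for 8 of the 9 members. F was 25 for EGR1, 16.5 for IER2, 10.6 for CD69, 9.96 for JUN, 9.22 for FOS, 6.99 for JUNB, 4.66 for NAB2 and 3.05 for EGR3, with adjusted p-values from 4.82e-09 for EGR1 to 0.0338 for EGR3. The call of NAB2 was lost with probe sets averaged (F = 2.6, adjusted p = 0.0778) and that of EGR3 with a pseudocount of 1 (F = 1.96, adjusted p = 0.176) and without any 1 of 5 arrays.

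Among the 7 EZH2 mutant lines, 1 line stood apart from the others in 5 of 18 sets of values, where chance gives about 1 in 20 for independent sets. These sets are not independent, since a gene's change and its DMSO level share the DMSO arrays. The members were also chosen with earlier results of these data known, so that rate is no yardstick for the 5 of 18. The FOSB change of -1.56 in KARPAS-422 was far from the nearest of the other lines, at -0.17, and so was its DMSO level of 8.37, against 5.82 in the nearest. The NAB2 change of -1.45 in KARPAS-422 had its nearest neighbour at -0.74. With the brightest JUN probe set, the change of -1.70 in WSU-DLCL2 was the single one below 0, with the nearest at 0.20. With arrays at equal medians that set gave -0.03 in SU-DHL-10. The other JUN sets lay below 0 in some of the other mutant lines. The DMSO level of the brightest JUN set was 10.95 in WSU-DLCL2, against 8.28 in the nearest mutant line.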

How the results depend on the processing

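Of the 24 called combinations of gene and line, none changed sign under any alternative, and 13 kept their call under every alternative other than other probe sets, each array left out included: EGR1 in HT, KARPAS-422, SU-DHL-10 and WSU-DLCL2, FOS and JUNB in WSU-DLCL2 and KARPAS-422, JUN and CD69 in WSU-DLCL2, and EGR3, IER2 and NAB2 in KARPAS-422. The replicate block left 23 calls, losing IER2 in SU-DHL-10, and changed no other call. The number of members called was 3 in SU-DHL-10 with a pseudocount of 1, 1 in SU-DHL-6 with quantile normalization, and 1 in Pfeiffer, 1 in SU-DHL-6 and 0 in DB with arrays at equal medians, with or without the replicate block. It was 0 in Pfeiffer and 0 in DB when each line was fitted alone. In WSU-DLCL2 it was 7 with arrays at equal medians, where IER2 was called too. The mutant mean had 0 members called with probe sets averaged, with the R tag as a term and over the 5 lines with tag R7 (limma, adjusted p = 0.0641, 0.0546 and 0.291 for NAB2). With 1 array left out, the total ranged from 19 to 26. Without any 1 of the line's own arrays, the count was 5 in WSU-DLCL2 and 6 in KARPAS-422, against 6 and 7 in the fit reported. It was 1 to 4 in SU-DHL-10, against 6 in the fit reported. In Pfeiffer it ranged from 0 to 2, in HT from 1 to 2, and in DB, SU-DHL-4 and SU-DHL-6 from 0 to 1. With 1 array left out the F test passed for 7 to 9 members. Of the DMSO differences of 9 genes over 45 pairs of lines, 241 to 257 then passed (254 in the fit reported), adjusted over genes and pairs. Over all genes 52.6% of such differences passed in the fit reported, adjusted over genes only. With 1 line left out the mutant mean had 0 to 1. Arrays at equal medians moved the median change of all genes by -0.23 in WSU-DLCL2 and SU-DHL-10, -0.17 in SU-DHL-6, -0.16 in KARPAS-422 and -0.14 in Pfeiffer and Toledo. Beyond these, the cause of a lost call was not tested. Signals of FOS, FOSB, EGR3 and CD69 in most lines were too dim to show a decrease.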
